A study of Mus musculus with 48 samples.

Results

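ATF7 is a transcription factor of the ATF2 family that binds cyclic AMP response elements, recruits histone H3K9 methyltransferases to keep target genes silent, and is released from chromatin when stress kinases phosphorylate it. In the liver the same family of factors is known from stress and metabolic responses. The comparison described here set the livers of ATF7+/- offspring, by their label heterozygous for Atf7, against those of ATF7+/+ offspring, where the sires of both had eaten the control diet. It used 16 of the 48 arrays of the series, 8 per genotype, chosen by their genotype and diet labels alone. It asks what the heterozygous state goes with in liver when no dietary challenge was given to the sire.

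The median liver lobe was taken from F1 mice of both sexes at 3 weeks of age, and the diet was given to the sires from 3 to 12 weeks of age. The groups were ATF7+/- offspring of control-diet sires (8 arrays) and ATF7+/+ offspring of control-diet sires (8 arrays). The same 2 genotypes from low-protein sires and wild-type offspring of sires on either diet were used only to set the values in context and to share the estimate of spread. The labels do not say how ATF7+/+ differed from wild-type, which allele was altered, or which parent passed it on.

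Replicates 7 and 8 of the ATF7+/+ group differed on variable genes hardly more than on stable ones (a ratio of 1.30, against 1.96 to 5.31 in pairs that were kept apart). They were averaged and counted as 1 sample, so n = 8 in ATF7+/- and n = 7 in ATF7+/+. Values are log2 expression, and array medians over all 48 arrays lay between 5.89 and 6.12. The hepatocyte marker Alb stood at 13.38 to 13.67 in these livers, while Epcam of the bile duct and Adipoq of fat were at 4.91 to 5.65 and at 3.64 to 4.38. Krt19, also of the bile duct, was higher than these, at 5.57 to 7.10. So were Cela1 of the pancreas (6.19 to 6.84), Ckm of muscle (5.79 to 6.39) and Cd3e of T cells (6.17 to 6.56). The arrays fell into sets A and B by the probe sets that have no gene in the annotation; no label describes such a split. Set A held ATF7+/- replicates 1, 2 and 6 and ATF7+/+ replicates 1, 2 and 3, and the others formed set B. Inside set A, the ATF7+/+ arrays of both diets also stood apart on a second component, from -19.42 to -11.94, against 1.188 to 12.43 in ATF7+/- arrays and 3.99 to 12.49 in wild-type arrays. By Y-linked transcripts, set A held 2 males and 1 female in ATF7+/- and 3 males in ATF7+/+, and set B held 3 males and 2 females in ATF7+/- and 3 males and 1 female in ATF7+/+. Values within each array set are therefore given beside those over all samples.

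Atf7 itself was lower in ATF7+/- livers, to 50% of the ATF7+/+ level on the probe set that parted the groups best. On this second probe set, ATF7+/- livers had log2 levels from 7.19 to 8.0 (median 7.79), against 8.45 to 9.13 (median 8.64) in ATF7+/+ livers. No ATF7+/- sample reached the lowest ATF7+/+ sample. The log2 difference was -1.0 ± 0.13 (SE, limma adjusted p = 1.83e-05 when this probe set was added to the genes tested). Wild-type livers of control-diet sires had levels of 8.32 to 8.70 (median 8.62). In set A they lay below the ATF7+/+ livers, at 8.57 to 8.69 against 8.92 to 9.13. In set B these ranges overlapped, at 8.32 to 8.70 in wild-type and 8.45 to 8.64 in ATF7+/+ livers. The drop was deeper in set A, at -1.47 ± 0.15 (36.1% of the ATF7+/+ level, adjusted p = 0.000108), than in set B, at -0.68 ± 0.10 (62.4%, adjusted p = 0.00242). The difference between the sets was itself past the threshold (-0.79 ± 0.18, adjusted p = 0.00545).

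The first probe set of Atf7, which has the higher signal and represents the gene in the tests across genes, gave a smaller difference. ATF7+/- livers had levels from 8.46 to 8.86 (median 8.61), and ATF7+/+ livers from 8.84 to 9.59 (median 8.96). The groups met at their edges, where 1 ATF7+/- sample lay just above the lowest ATF7+/+ sample. The difference of -0.40 ± 0.08 had an adjusted p of 0.0788 in limma, which missed the threshold of 0.05, and adding the array set to the model as a block gave -0.41 ± 0.08 (adjusted p = 0.0249). It was -0.73 ± 0.13 in set A (adjusted p = 0.00382) and -0.18 ± 0.07 in set B (adjusted p = 0.508). Where the probe sets lie against the altered part of the gene is not given in the sources used here. In offspring of low-protein sires, the second probe set differed by -0.89 ± 0.13 (54.1%, adjusted p = 0.000152). The genotype difference did not pass a test between the diets (-0.11 ± 0.18, adjusted p = 1).

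**Figure D1:**
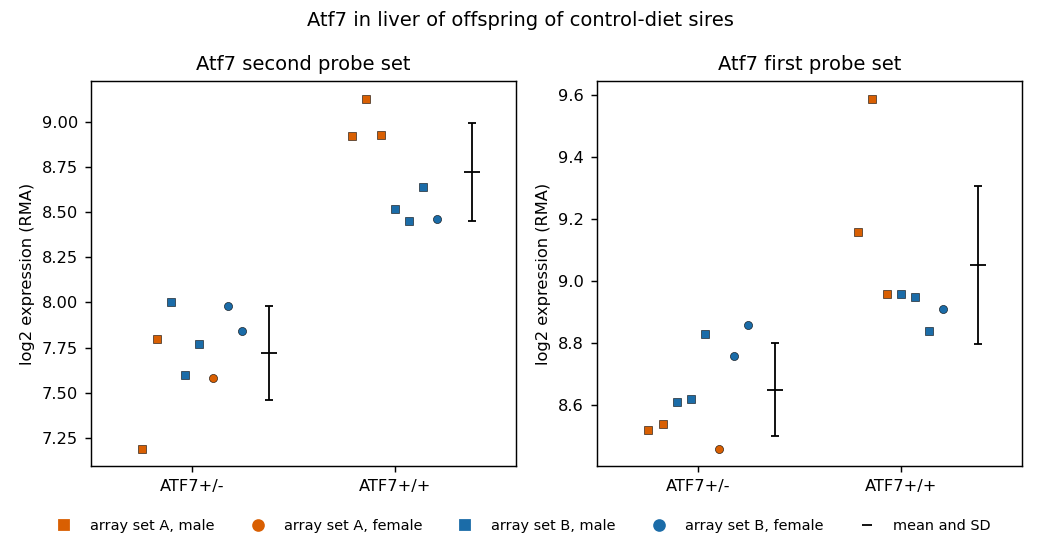
Log2 expression of both Atf7 probe sets in each liver of control-diet sires, ATF7+/- left of ATF7+/+, coloured by array set, with squares for males and circles for females and the mean and SD beside each group. On the second probe set the ATF7+/- samples (7.19 to 8.0) all lie below the ATF7+/+ samples (8.45 to 9.13), and the set A samples lie farthest apart.

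Across 13542 genes, none passed the test between ATF7+/- and ATF7+/+ livers over all samples (0%). At an unadjusted p under 0.05 there were 914 genes (6.75%), 445 higher (3.29%) and 469 lower (3.46%) in ATF7+/- livers. The median log2 difference over all genes was 0.00. Once array set was a block in the model, 10 genes passed (0.0738%), of which 7 were higher (0.0517%) and 3 lower (0.0222%) in ATF7+/- livers. Each of the 10 differed in 1 direction in both sets. That fit pools the same samples of both sets, so the shared direction is no independent evidence. With 1 probe set per gene, none of the 10 passed in set B alone (limma adjusted p from 0.0863 to 0.589). The genes that rose were Lss, Nipal1, Il13ra1, Prtn3, Fmo4, Lrpap1 and Vps28, and those that fell were Atf7, Tram2 and Ubp1. In low-protein sires each differed in the same direction but by less. In the order above, these differences were 0.19, 0.52, 0.37, 0.07, 0.07, 0.11, 0.13, -0.34, -0.14 and -0.05. ATF7+/+ livers lay farther from wild-type livers of control-diet sires than ATF7+/- livers did for Nipal1 (-0.56 against 0.48) and Il13ra1 (-0.41 against 0.26). They lay nearer for the others, such as Lss (0.50 against 1.61) and Fmo4 (0.09 against 0.52). Leaving out ATF7+/+ replicate 6 gave 4 genes past the threshold without the block, and leaving out ATF7+/+ replicate 5 or ATF7+/- replicate 8 gave 1 each.

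Prtn3, the neutrophil serine protease proteinase 3, had the smallest p over all samples. Its levels were 5.54 to 6.24 (median 5.81) in ATF7+/- livers, against 5.14 to 5.42 (median 5.37) in ATF7+/+ livers. The groups did not overlap, but every ATF7+/+ value lay below 5.46, the mean level a gene needed to be tested, so the size of the difference is uncertain. The difference was 0.51 ± 0.10 (limma adjusted p = 0.0788), with 0.40 in set A against 0.59 in set B, and the block gave 0.52 ± 0.10 (adjusted p = 0.0233). Of the 10 granulocyte markers listed, Prtn3 among them, 6 were measured and 5 of these were higher in ATF7+/- livers (49.8% of all genes were). Of the 6 markers, 1, Prtn3, was higher at an unadjusted p under 0.05 (3.29% of all genes were). Their mean level was 6.20 to 6.78 in ATF7+/- samples and 6.08 to 6.46 in ATF7+/+ samples, and their part in the Prtn3 difference was not tested. In bulk liver, a different number of cells of a type and a different amount of RNA per cell cannot be told apart.

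Fmo4 encodes a flavin-containing monooxygenase, a family that oxidizes drugs and other foreign compounds. It had levels of 8.52 to 8.86 (median 8.59) in ATF7+/- livers and of 7.95 to 8.53 (median 8.15) in ATF7+/+ livers, where a single sample reached the ATF7+/- range. The difference of 0.43 ± 0.09 (1.35-fold) missed the threshold over all samples (limma adjusted p = 0.0788) and passed with the block (0.43 ± 0.09, adjusted p = 0.0249). It was of like size in set A (0.52) and in set B (0.38).

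Nipal1, a membrane protein of a magnesium transporter family, had levels of 7.52 to 8.52 (median 8.36) in ATF7+/- livers and of 6.36 to 8.19 (median 7.39) in ATF7+/+ livers. The groups overlapped through 1 low ATF7+/- sample and 1 high ATF7+/+ sample, both in set B. The difference was 1.04 ± 0.22 (2.06-fold, limma adjusted p = 0.0808), or 1.03 ± 0.21 with the block (adjusted p = 0.0255). It was 1.56 ± 0.27 in set A against 0.66 ± 0.25 in set B.

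Lrpap1, the chaperone that escorts receptors of the LDL receptor family through the endoplasmic reticulum, had levels of 9.60 to 9.84 (median 9.70) in ATF7+/- livers and of 9.18 to 9.61 (median 9.51) in ATF7+/+ livers. The difference was 0.30 ± 0.07 over all samples (limma adjusted p = 0.145) and 0.29 ± 0.05 with the block (adjusted p = 0.0233), with 0.40 in set A against 0.21 in set B. Il13ra1, a subunit of the receptors for interleukin 13 and interleukin 4, had levels of 9.31 to 9.75 (median 9.47) in ATF7+/- livers and of 7.91 to 9.49 (median 9.07) in ATF7+/+ livers. Its difference of 0.67 ± 0.16 (limma adjusted p = 0.145) was 0.66 ± 0.14 with the block (adjusted p = 0.0386), and the lowest ATF7+/+ values were those of set A (1.12 in set A against 0.33 in set B, a gap with adjusted p = 0.0192).

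Vps28, a subunit of the ESCRT-I complex that sorts membrane proteins for degradation, differed by 0.26 ± 0.12 over all samples and by 0.24 ± 0.04 with the block (limma adjusted p = 0.0233). Its levels were 9.74 to 10.36 (median 10.18) in ATF7+/- livers and 9.44 to 10.06 (median 9.90) in ATF7+/+ livers, and these ranges overlapped widely. The difference was 0.19 in set A against 0.28 in set B. Ubp1, a transcription factor of the CP2 family, differed by -0.34 ± 0.09 over all samples and by -0.33 ± 0.06 with the block (adjusted p = 0.0233). It had levels of 8.53 to 8.91 (median 8.71) in ATF7+/- livers and of 8.83 to 9.59 (median 8.87) in ATF7+/+ livers, and the gap between -0.54 in set A and -0.17 in set B passed the test (adjusted p = 0.0312). Tram2, a protein of the translocon in the endoplasmic reticulum, differed by -0.38 ± 0.11 over all samples and by -0.39 ± 0.08 with the block (adjusted p = 0.0307). Its levels of 7.96 to 8.53 (median 8.33) in ATF7+/- livers barely met the 8.51 to 8.81 (median 8.64) of ATF7+/+ livers, and the difference was -0.65 in set A against -0.22 in set B.

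The remaining genes among the 15 with the smallest p missed the threshold over all samples and with the block, with limma adjusted p from 0.145 to 0.337 over all samples. Higher in ATF7+/- livers were Klhl13, an adaptor of cullin ubiquitin ligases, by 0.33 ± 0.08 (0.38 in set A, 0.29 in set B), and the receptor Notch2, which guides bile duct formation, by 0.25 ± 0.07 (0.32 in set A, 0.20 in set B). Ssbp3, a cofactor of LIM-domain transcription complexes, was lower, with a difference of -0.25 ± 0.06, and the gap between -0.46 in set A and -0.11 in set B passed the test (adjusted p = 0.021). Brd2, a bromodomain reader of acetylated histones, differed by -0.31 ± 0.08 (-0.44 in set A, -0.23 in set B). Lor, a protein of the cornified skin envelope, differed by -0.34 ± 0.08, from a low signal of 5.23 to 5.72 in ATF7+/- livers and of 5.58 to 5.90 in ATF7+/+ livers (-0.09 in set A, -0.51 in set B). Mapre3, which binds growing microtubule ends, differed by -0.36 ± 0.09 (-0.45 in set A, -0.31 in set B), and Madd, an activator of Rab3 GTPases, by -0.25 ± 0.07 (-0.36 in set A, -0.19 in set B). Atat1, the acetyltransferase of alpha-tubulin, differed by -0.54 ± 0.14, with levels of 7.28 to 7.76 in ATF7+/- livers and of 7.27 to 8.86 in ATF7+/+ livers. The wide ATF7+/+ range followed the array sets, with 8.32 to 8.86 in set A and 7.27 to 7.89 in set B. The difference was -1.09 ± 0.15 in set A (adjusted p = 0.000548) against -0.14 ± 0.12 in set B, and the gap between them passed the test (-0.95 ± 0.20, adjusted p = 0.00328). Against wild-type livers of control-diet sires, the differences of ATF7+/- and of ATF7+/+ livers follow in that order. ATF7+/- livers lay nearer to wild-type for Notch2 (0.04 and -0.21), Ssbp3 (-0.06 and 0.19) and Atat1 (-0.01 and 0.53). ATF7+/+ livers lay nearer for Klhl13 (0.46 and 0.13), Brd2 (-0.32 and -0.01), Lor (-0.29 and 0.05) and Madd (-0.24 and 0.02). Mapre3 lay on either side (-0.18 and 0.18).

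**Figure D2:**
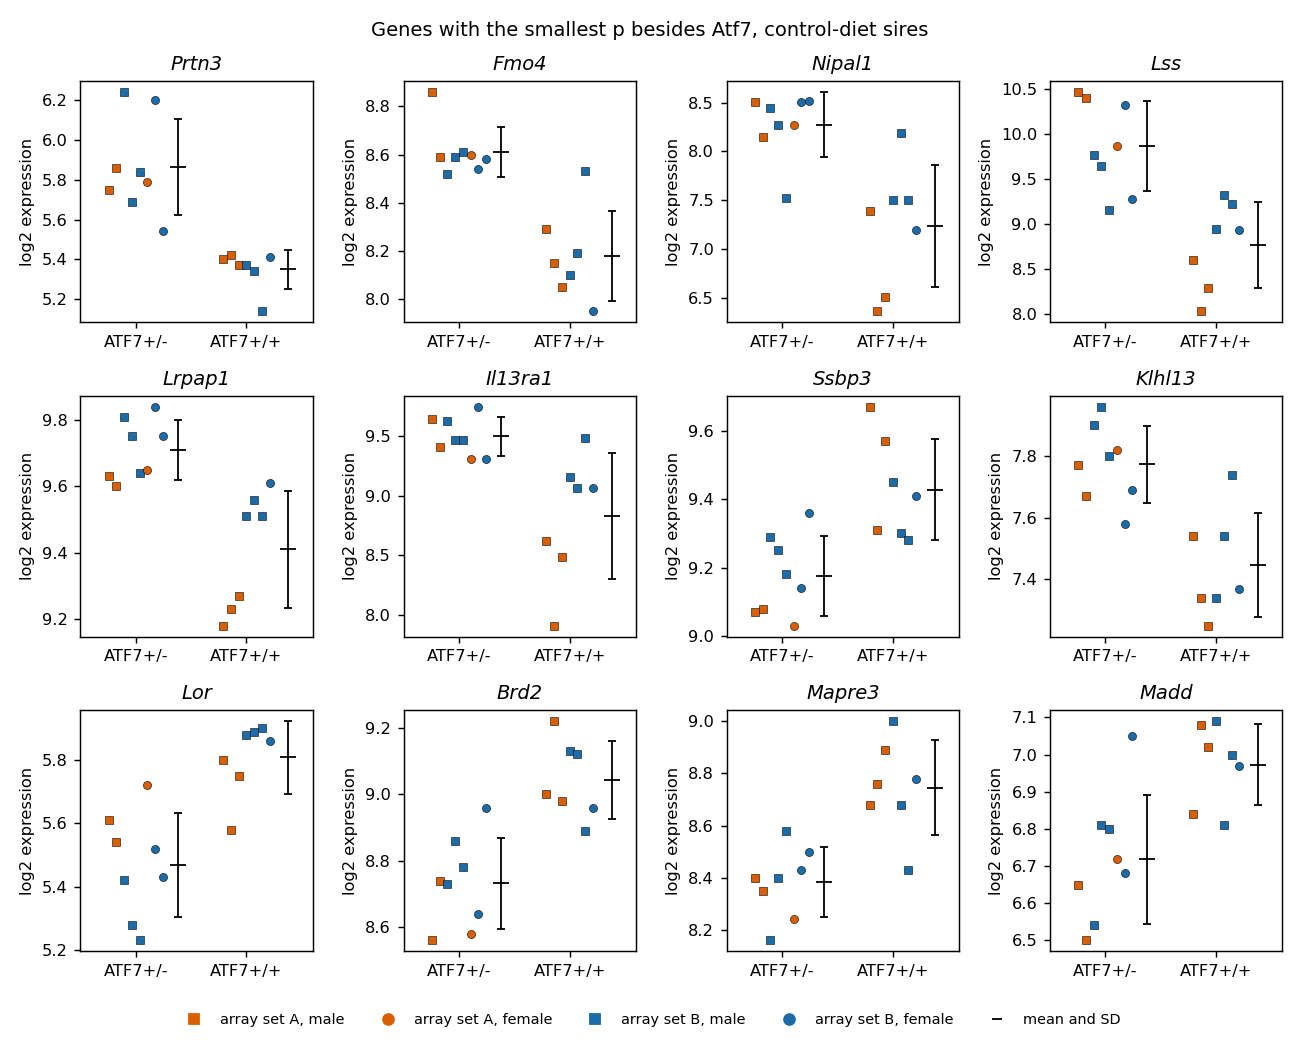
Log2 expression per liver of the 12 genes with the smallest p besides Atf7, in ATF7+/- livers left of ATF7+/+ livers, coloured by array set, with squares for males and circles for females and the mean and SD beside each group. Prtn3 shows no overlap (5.54 to 6.24 in ATF7+/-, 5.14 to 5.42 in ATF7+/+), while Nipal1, Lss and Il13ra1 have their lowest ATF7+/+ values in set A.

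Lss, the lanosterol synthase that closes the sterol rings, was the gene of cholesterol synthesis with the smallest p. It had levels of 9.16 to 10.47 (median 9.82) in ATF7+/- livers and of 8.03 to 9.32 (median 8.93) in ATF7+/+ livers. The 2 lowest ATF7+/- samples, replicates 5 and 8 of set B, lay within the ATF7+/+ range, and the others lay above it. The difference was 1.10 ± 0.24 (2.15-fold, limma adjusted p = 0.0978), and 1.11 ± 0.24 with the block (adjusted p = 0.0386). It reached 1.94 ± 0.21 in set A (3.84-fold, adjusted p = 0.000201) and 0.53 ± 0.24 in set B (adjusted p = 0.589), and the gap between the sets passed the test (1.41 ± 0.36, adjusted p = 0.0148).

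All 19 measured genes of a list of 24 for cholesterol synthesis and uptake were higher in ATF7+/- livers, where 49.8% of all genes were higher. Of the 19, 12 had an unadjusted p under 0.05 (3.29% of all genes did so in that direction), 0 passed over all samples and 1, Lss, passed with the block. The median difference of the list was 0.42, from 0.12 to 1.10, against 0.00 over all genes. It was 0.75 in set A, where 12 members were called higher (5.32% of all genes). In set B it was 0.21, where all 19 were again higher (46% of all genes were) and 0 were called. The all-gene medians were 0.00 in set A and -0.01 in set B. Each fit that left out 1 sample kept all 19 higher, with a median of 0.33 to 0.46 and with 9 to 13 members at the unadjusted p. Among males alone, an alternative chosen after seeing the data, the median was 0.53 and 15 members reached it. With array weights in the fit over all samples, the median was 0.30, all 19 were higher and 9 reached that p. The list was chosen with results of the series known, so its direction is no independent evidence. The other 5 genes of the list were not analysed here.

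The mean level of the 19 genes was 9.91 to 10.51 (median 10.26) in ATF7+/- livers and 9.30 to 10.03 (median 9.83) in ATF7+/+ livers. In set A the groups did not overlap, at 10.01 to 10.51 in ATF7+/- samples and 9.30 to 9.66 in ATF7+/+ samples. In set B they did, at 9.91 to 10.32 in ATF7+/- samples and 9.83 to 10.03 in ATF7+/+ samples. Against wild-type livers of control-diet sires, whose samples both comparisons share, the median difference of the list was 1.31 for ATF7+/- and 0.53 for ATF7+/+ livers.

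Beside Lss, the members of the list named here by their p or chosen after their values were seen were Mvd, Hsd17b7, Fdft1 and Sqle. Mvd, the decarboxylase that ends the mevalonate steps, had levels of 7.93 to 9.10 (median 8.88) in ATF7+/- livers and of 7.43 to 8.20 (median 8.09) in ATF7+/+ livers. Only replicate 5 of ATF7+/- lay within the ATF7+/+ range, and the difference was 0.90 ± 0.24 (limma adjusted p = 0.337), or 1.41 in set A against 0.54 in set B. Hsd17b7, a sterol ketone reductase, had levels of 9.30 to 10.08 (median 9.86) in ATF7+/- livers and of 8.36 to 9.66 (median 9.34) in ATF7+/+ livers, a difference of 0.72 ± 0.20. Its gap between 1.26 in set A and 0.31 in set B passed the test (adjusted p = 0.0292). Fdft1, the squalene synthase, had levels of 10.96 to 11.36 (median 11.12) in ATF7+/- livers and of 10.20 to 10.99 (median 10.79) in ATF7+/+ livers, a difference of 0.42 ± 0.12 (0.71 in set A, 0.21 in set B). Sqle, the squalene epoxidase, had levels of 9.18 to 10.19 (median 9.73) in ATF7+/- livers and of 7.96 to 9.41 (median 9.32) in ATF7+/+ livers, a difference of 0.87 ± 0.26. For Sqle most of this lay in set A (1.80 ± 0.20, adjusted p = 0.000201) rather than set B (0.21 ± 0.25), and the gap between the sets passed the test (1.58 ± 0.37, adjusted p = 0.00701).

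**Figure D3:**
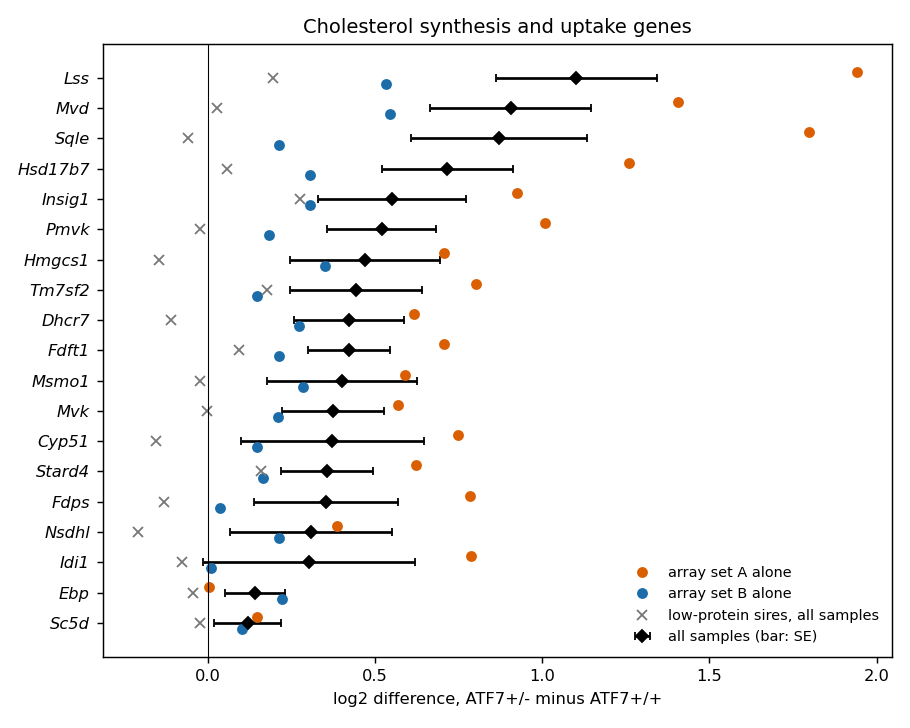
Log2 difference, ATF7+/- minus ATF7+/+, of the 19 measured cholesterol synthesis and uptake genes, over all samples of control-diet sires (black diamonds, bars are SE), in each array set alone (coloured circles) and in low-protein sires (grey crosses). The black diamonds run from 0.12 to 1.10, the set A values lie to the right of the set B values for most genes, and the low-protein values scatter around 0 with a median of -0.02.

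The promoters of 3 of these genes are shown because the members of the list differed in 1 direction and share a short element. Sterol genes are commonly driven by SREBP together with the CCAAT-binding factor NF-Y. The sequences are RefSeq's for build GRCm38.p6, 300 bases around the start of the gene, written along the gene's strand. They are from chr10:76531355-76531654 (plus strand) for Lss, chr8:122443373-122443672 (minus strand) for Mvd and chr1:169969156-169969455 (minus strand) for Hsd17b7, and capitals mark CCAAT or its reverse complement.
Lss: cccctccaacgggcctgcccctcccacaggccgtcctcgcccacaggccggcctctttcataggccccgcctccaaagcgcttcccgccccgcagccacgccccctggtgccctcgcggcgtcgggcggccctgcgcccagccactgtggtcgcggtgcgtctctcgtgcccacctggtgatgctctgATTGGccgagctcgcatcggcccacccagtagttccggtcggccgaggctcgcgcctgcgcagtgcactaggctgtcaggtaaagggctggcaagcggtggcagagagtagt
Mvd: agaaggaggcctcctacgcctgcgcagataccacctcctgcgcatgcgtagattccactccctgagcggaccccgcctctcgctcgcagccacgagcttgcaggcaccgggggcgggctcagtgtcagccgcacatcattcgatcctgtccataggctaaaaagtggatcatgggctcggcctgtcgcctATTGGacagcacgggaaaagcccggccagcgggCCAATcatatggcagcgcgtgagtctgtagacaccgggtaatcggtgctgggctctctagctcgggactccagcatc
Hsd17b7: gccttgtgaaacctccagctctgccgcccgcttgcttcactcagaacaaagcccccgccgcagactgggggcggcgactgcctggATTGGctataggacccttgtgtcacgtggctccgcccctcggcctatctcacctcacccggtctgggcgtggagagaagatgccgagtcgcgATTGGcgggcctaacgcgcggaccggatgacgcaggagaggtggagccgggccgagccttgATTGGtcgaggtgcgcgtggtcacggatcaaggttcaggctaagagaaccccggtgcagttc

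CCAAT was searched on both strands, and so were TGACGTCA, the cyclic AMP response element that ATF7 can bind, and TCACNCCAC, a form of the sterol regulatory element. Of the 19 measured genes of the list, 15 had an entry, with 18 promoters among them. CCAAT stood in at least 1 promoter of all 15 genes and in 83.3% of the 18 promoters, against 37.4% of the 32851 promoters of the table. TCACNCCAC was found in 1 of the 18 (1.24% of all promoters held it), and TGACGTCA in 0 of the 18 (1.79% of all promoters). TGACGTCA was also found in 0 of the 25 promoters of the 15 genes with the smallest p. In those 25 promoters TCACNCCAC was found in 0 and CCAAT in 8 (32%, against 37.4% of all promoters). A match is a description of the letters in this window, and factor binding was not measured.

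Genes of fatty acid synthesis were higher in ATF7+/- livers for 14 of 17 measured members of a list of 19 (49.8% of all genes were higher). At an unadjusted p under 0.05, 6 were higher (3.29% of all genes were) and 1 was lower (3.46% of all genes), and 0 passed over all samples or with the block. The median was 0.25 over all samples and 0.70 in set A (8 called higher and 1 lower, against 5.32% and 4% of all genes). In set B it was 0.03 (11 of 17 higher, against 46% of all genes, and 0 called). With array weights in the fit, the median was 0.11, and 0 members were higher and 2 lower at the unadjusted p. Without 1 sample the median ranged from 0.18 to 0.37, and 2 to 7 members were higher at that p, with the 2 found without ATF7+/+ replicate 2. In low-protein sires 4 of the 17 were higher in ATF7+/- livers (49.1% of all genes were), with a median of -0.13.

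Acss2, which makes acetyl-CoA from acetate, had levels of 10.26 to 11.43 (median 10.82) in ATF7+/- livers and of 9.38 to 10.84 (median 10.46) in ATF7+/+ livers (0.64 ± 0.24, limma adjusted p = 0.556, with 1.22 in set A against 0.28 in set B). Acly, the ATP citrate lyase, had levels of 10.28 to 11.99 (median 10.85) in ATF7+/- livers and of 9.19 to 10.60 (median 10.39) in ATF7+/+ livers (0.77 ± 0.30, adjusted p = 0.573). Its difference was 1.67 ± 0.26 in set A against 0.20 ± 0.27 in set B, and the gap between the sets passed the test (1.47 ± 0.41, adjusted p = 0.0246). Acacb, the acetyl-CoA carboxylase at the mitochondrial surface, differed by 0.66 ± 0.27 (1.27 in set A, 0.26 in set B). Pnpla3, a lipid-droplet protein whose transcript follows feeding, differed by 0.97 ± 0.40 (1.78 in set A, 0.49 in set B). The groups overlapped for each of these genes.

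Bcl6, a transcriptional repressor that opposes STAT5 in liver, had the largest log2 difference of the growth hormone list, toward lower values in ATF7+/- livers. It had levels of 6.45 to 8.75 (median 7.0) in ATF7+/- livers and of 7.94 to 8.93 (median 8.71) in ATF7+/+ livers. Replicates 3 and 4 of ATF7+/-, both males of set B, lay inside the ATF7+/+ range and the other 6 below it. The difference was -1.21 ± 0.34 (0.434-fold, limma adjusted p = 0.376), with -1.88 ± 0.21 in set A (adjusted p = 0.000201) and -0.81 ± 0.47 in set B (adjusted p = 0.682). In low-protein sires it was 0.40 ± 0.33, and the change of the genotype difference with diet was -1.60 ± 0.47 (adjusted p = 1). Of the 13 members, all measured, 8 were higher in ATF7+/- livers (49.8% of all genes were). At an unadjusted p under 0.05, 0 were higher (3.29% of all genes were) and 1, Bcl6, was lower (3.46% of all genes). Stat5b and Stat5a, the mediators of growth hormone signalling, differed by -0.23 ± 0.12 and by -0.16 ± 0.11 over all samples, and neither passed. In set A they differed by -0.62 and -0.60, where both passed (adjusted p = 0.00574 and 0.00748), and in set B by 0.05 and 0.13, on the other side of 0. The gap between sets passed for both (adjusted p = 0.0137 and 0.00735). Cish, a feedback inhibitor of that pathway, differed by 0.36 ± 0.23 (0.33 in set A, 0.39 in set B).

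Clock output genes gave no call over all samples or with the block. Nfil3, a repressor of clock-driven promoters, differed by -0.60 ± 0.20 (limma adjusted p = 0.455), with levels of 7.05 to 8.16 (median 7.47) in ATF7+/- livers and of 7.57 to 8.46 (median 8.08) in ATF7+/+ livers. The difference was -1.04 in set A against -0.29 in set B. Ciart, a circadian repressor, was spread over 5.85 to 8.55 (median 7.23) in ATF7+/- livers and over 4.83 to 7.55 (median 5.97) in ATF7+/+ livers. Its difference was 2.59 ± 0.45 in set A (adjusted p = 0.00333) and -0.02 ± 0.59 in set B. Dbp and Wee1, targets of the clock, differed by 0.27 ± 0.37 and 0.20 ± 0.36, with 0.74 and 0.51 in set A but -0.11 for each in set B. Against wild-type livers of control-diet sires, ATF7+/- and ATF7+/+ livers differed by 0.00 and 0.60 for Nfil3, and by -0.82 and -1.88 for Ciart. Dbp had -0.33 and -0.60 there, and Wee1 had -0.41 and -0.61. The list median was 0.12 over 9 measured genes of 12, with 0.47 in set A against -0.11 in set B. Over all samples it turned to -0.03 with array weights in the fit, where 3 of 9 were higher. Among males alone the list median was -0.11, and -0.15 with the block. The hour of collection is not given in the sources used here.

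Of the 12 Kupffer cell and macrophage markers, all measured, 10 were higher in ATF7+/- livers (49.8% of all genes were). Of these, 2 reached an unadjusted p under 0.05 (3.29% of all genes did so in that direction). These were C1qb (0.48 ± 0.19, with 0.76 in set A against 0.22 in set B) and C1qc (0.42 ± 0.21, with 0.75 in set A against 0.11 in set B), chains of the complement component C1q, which liver macrophages make. Csf1r, the receptor for macrophage growth factor, differed by 0.26 ± 0.18 (0.44 in set A, 0.06 in set B) and Vsig4, a complement receptor of Kupffer cells, by 0.22 ± 0.20 (0.47 in set A, -0.03 in set B). The median of 0.11 was 0.04 without ATF7+/+ replicate 2, where no marker reached the unadjusted p, and 0.23 without ATF7+/+ replicate 5. The list mean was 8.62 to 9.41 in ATF7+/- livers and 8.23 to 9.35 in ATF7+/+ livers. In set A alone the ranges did not overlap, at 8.62 to 8.90 in ATF7+/- samples and 8.23 to 8.58 in ATF7+/+ samples, and 3 markers were called higher there (5.32% of all genes). In set B the ranges overlapped, 6 of 12 markers were higher (46% of all genes were) and the median was 0.01. The list median against wild-type livers of control-diet sires was -0.01 for ATF7+/- and -0.18 for ATF7+/+ livers. In low-protein sires all 12 markers were higher in ATF7+/- livers (49.1% of all genes were). Their median there was 0.22, with 0.50 in set A against 0.04 in set B. The part of these markers in the other set A results was not tested.

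Among 17 measured genes of 20 for coagulation and complement, 12 were higher in ATF7+/- livers and 5 of these had an unadjusted p under 0.05 (3.29% of all genes did so in that direction), with a median of 0.08. The median was -0.01 in set A, where 8 of 17 were higher (50.6% of all genes were) and 1 was called lower (4% of all genes). In set B it was 0.18, where 15 were higher (46% of all genes were) and 0 were called. Without 1 sample the median over both sets was 0.04 to 0.11, and 3 to 6 genes were higher at the unadjusted p. The lowest of both were found without ATF7+/+ replicate 5. Cfi, the protease that inactivates C3b, differed by 0.20 ± 0.06, F10, coagulation factor X, by 0.24 ± 0.07, F7, coagulation factor VII, by 0.41 ± 0.15 and C4b, complement component C4, by 0.41 ± 0.16. The differences of these 4 genes, which were named by their p, ran from 0.19 to 0.41 in set A and from 0.20 to 0.43 in set B. For all 4 genes the levels of the genotypes overlapped, and the limma adjusted p ran from 0.376 to 0.556.

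**Figure D4:**
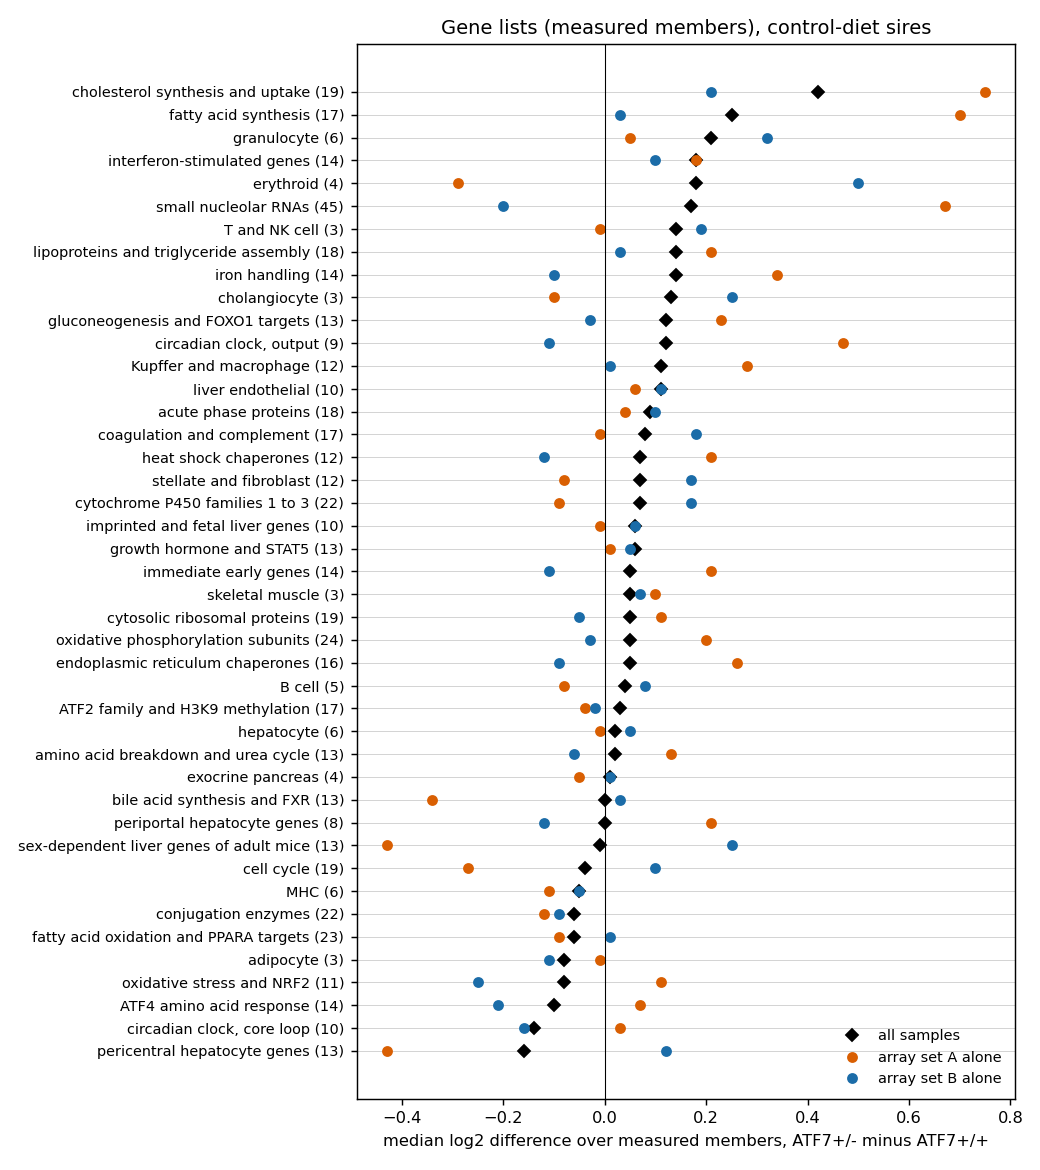
Median log2 difference, ATF7+/- minus ATF7+/+, over the measured members (number in brackets) of each gene list with at least 3 of them, over all samples (black diamonds) and within array sets A and B (circles). Cholesterol synthesis has the highest median in all samples (0.42) and lies right of 0 in both sets (0.75 and 0.21), while small nucleolar RNAs lie on opposite sides of 0 (0.67 and -0.20).

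Within set A alone, with 3 livers per genotype, 1262 genes passed (9.32%), 720 higher (5.32%) and 542 lower (4%) in ATF7+/- livers. Within set B alone, with 5 ATF7+/- and 4 ATF7+/+ livers, 2 genes passed (0.0148%). These were Apom, an apolipoprotein of HDL, which rose by 0.48 ± 0.08 (limma adjusted p = 0.0248), and Rplp2, a protein of the ribosomal stalk, which fell by 0.44 log2 units (± 0.08, adjusted p = 0.0431). In set A these differed by -0.26 ± 0.11 and by 0.02 ± 0.21. Rplp2 had levels of 6.32 to 6.62 in ATF7+/- livers and of 6.85 to 7.08 in ATF7+/+ livers of set B. Its set A levels were lower in both groups, at 5.67 to 6.32 and at 5.76 to 6.26. With 1 probe set per gene, no gene passed in both sets (the second probe set of Atf7, above, did). Of the 1262 genes called in set A, 594 (47.1%) had the same direction in set B and 668 the opposite one. The median absolute difference of the 1262 genes was 0.49 in set A against 0.084 in set B. Across the 13542 genes the differences in the 2 sets had a Pearson r of -0.04, given as a description because genes of 1 array are not independent.

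The genotype difference itself differed between the array sets for 834 genes (6.16%), 544 with a higher (4.02%) and 290 with a lower (2.14%) value in set A than in set B. This count was 246 without ATF7+/+ replicate 2 and 1295 without ATF7+/+ replicate 3, both of set A. Snord87, a small nucleolar RNA that guides ribosomal RNA methylation, led by p, with a set A minus set B value of 2.51 ± 0.30 (limma adjusted p = 5.94e-06). In set A its levels were 6.95, 7.82 and 5.85 in ATF7+/- livers, against 4.27, 4.49 and 5.03 in ATF7+/+ livers. In set B its levels were 5.04 to 5.30 in ATF7+/- livers and 5.18 to 5.63 in ATF7+/+ livers, on the other side of 0. The ATF7+/+ levels in set A and all ATF7+/- levels in set B lay below 5.46, so the size of the difference is uncertain. Snora70, which guides pseudouridylation, gave 1.28 ± 0.17, and Pfdn2, a subunit of the prefoldin chaperone, gave 0.95 ± 0.12. P2ry2, a receptor for extracellular nucleotides, gave 1.38 ± 0.20 and Phf21a, a subunit of a histone demethylase complex, gave -0.95 ± 0.14. In set A, ATF7+/- levels of each of these genes overlapped wild-type levels of control-diet sires, and ATF7+/+ levels did not. Wild-type, ATF7+/- and ATF7+/+ levels there were 9.47 to 9.56, 9.20 to 9.51 and 8.24 to 8.65 for Pfdn2. For Phf21a they were 7.33 to 7.51, 7.32 to 7.53 and 8.09 to 8.73. For P2ry2 they were 7.73 to 7.94, 7.86 to 7.97 and 6.87 to 7.18. Snord87 had wild-type levels of 6.75 to 6.99.

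Small nucleolar RNAs, a list made by symbol after seeing the data, had 45 measured members. Of these, 31 were higher in ATF7+/- livers over all samples (49.8% of all genes were), and 4 were so at an unadjusted p under 0.05 (3.29% of all genes). Their median was 0.67 in set A, where 18 were called higher (5.32% of all genes) and 0 lower. In set B their median was -0.20, where 7 were higher (46% of all genes were). For 20 of the 45 the difference between sets passed the test (6.16% of all genes). Sult2a8, a hepatic sulfotransferase that was also chosen after its values were seen, showed the opposite turn. Its difference was -1.60 ± 0.16 in set A (adjusted p = 0.000101) and 0.65 ± 0.38 in set B, and the gap was -2.25 ± 0.50 (adjusted p = 0.00566). Among males alone, 214 genes passed the test between sets. Within set A, genotype and the standing apart of the ATF7+/+ arrays on the second component cannot be told apart.

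**Figure D5:**
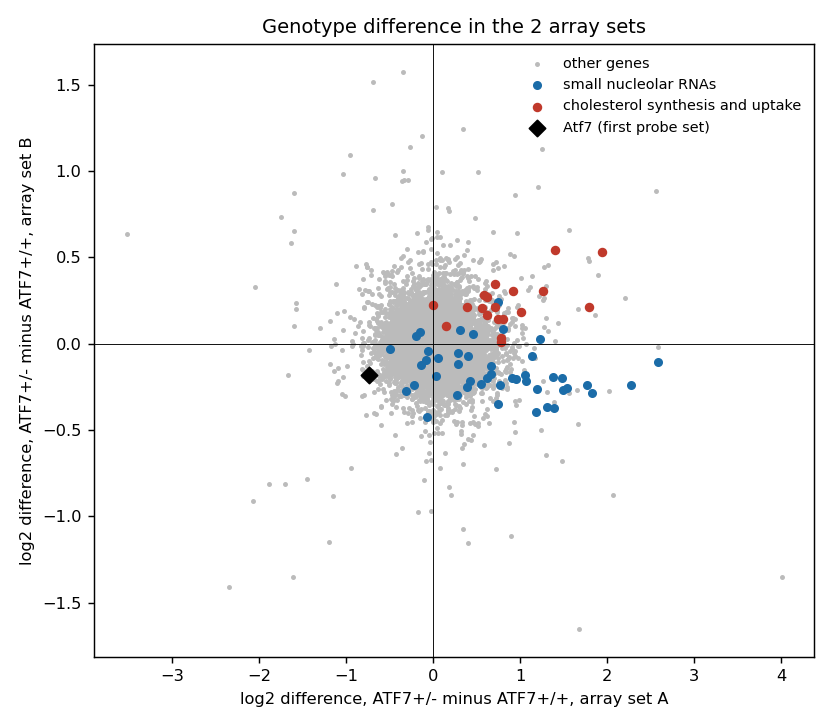
Log2 difference, ATF7+/- minus ATF7+/+, in array set A (horizontal) and array set B (vertical) for each of 13542 genes, with cholesterol genes in red, small nucleolar RNAs in blue and Atf7 as a diamond. Cholesterol genes lie right of and above 0, many small nucleolar RNAs lie right of and below 0, and the cloud as a whole shows no shared slope (r of -0.04).

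Since an altered allele can be inherited with its surroundings, the genes that lie near Atf7 on the chromosome were described as a group. The labels do not say how the allele was made. Of 131 measured genes within 10 Mb, 8 had an unadjusted p under 0.05 (6.11%, against 6.75% of all genes), 2 higher and 6 lower in ATF7+/- livers. None passed over all samples or with the block, 10 were called in set A alone (7.63%, against 9.32% of all genes), and the median difference was 0.01. Csad, which makes the taurine precursor hypotaurine and was chosen after its values were seen, lay 0.35 Mb from Atf7. Its levels were 8.57 to 9.73 (median 8.79) in ATF7+/- livers and 8.74 to 10.77 (median 9.67) in ATF7+/+ livers. The difference of -0.98 ± 0.28 (limma adjusted p = 0.376) was -1.15 ± 0.35 in set A against -0.88 ± 0.35 in set B. Npff, the nearest measured gene and chosen in the same way, encodes neuropeptide FF, and it differed by -0.28 ± 0.13 (-0.40 in set A, -0.17 in set B).

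The same genotype comparison in offspring of low-protein sires (n = 8 each) also gave 0 genes past the threshold (0%), with 908 at an unadjusted p under 0.05 (6.71%). Its set A alone gave 1218 genes (8.99%) and its set B alone 0 (0%). The cholesterol list did not lean to ATF7+/- there, with 7 of 19 genes higher and a median of -0.02, which was 0.09 in set A against -0.03 in set B. For no gene did the genotype difference pass a test between the 2 diets (0%), and 380 genes (2.81%) had an unadjusted p under 0.05 in limma.

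The 5 genes with the smallest p for that difference between diets are given with their control-diet values. Rb1cc1, a starter of autophagosome formation, had levels of 7.45 to 7.75 (median 7.61) in ATF7+/- livers and of 7.77 to 7.99 (median 7.85) in ATF7+/+ livers of control-diet sires, without overlap. It differed by -0.27 ± 0.07 there (-0.28 in set A, -0.26 in set B) and by 0.17 ± 0.07 in low-protein sires (adjusted p of the change with diet 0.958). Mr1, which presents vitamin metabolites to T cells, differed by 0.51 ± 0.14 in control-diet sires and by -0.14 ± 0.13 in low-protein sires. Plscr4, a phospholipid scramblase, differed by -0.25 ± 0.08 in control-diet and 0.14 ± 0.08 in low-protein sires. Dgcr8, the RNA-binding partner of Drosha, differed by -0.23 ± 0.09 in control-diet and 0.19 ± 0.08 in low-protein sires, and Wfdc13 by 0.11 ± 0.06 in control-diet and -0.20 ± 0.06 in low-protein sires. For these last 4 genes the adjusted p of the change with diet was 1 in each case. Within sets A and B of control-diet sires, Mr1 differed by 0.83 and 0.30, Plscr4 by -0.23 and -0.26, and Dgcr8 by -0.16 and -0.29. Wfdc13 lay on either side of 0, at -0.05 in set A against 0.23 in set B.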

How the data were processed

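Liver RNA was labelled with biotin and hybridized to Affymetrix gene arrays. The authors deposited RMA values on a log2 scale, 1 per probe set, and the submitters' processing notes name Affymetrix Expression Console; versions and joint normalization are not given in the sources used here. Probe sets with 1 gene symbol and a mean at or above the 40th percentile (5.46) were kept, 1 per gene by highest mean, which left 13542 genes of 35556 probe sets. Near-identical arrays of a group (ratio under 1.5) were averaged, which left 46 samples of 48. Array sets were split at the widest gap along principal component 1 (48.6% of variance) of 5591 probe sets with no listed gene. All 6 groups were fitted with limma 3.58.1 in R 4.3.3 (with the package data.table, version 1.17.8), two-sided, and genes passed at an adjusted p of 0.05 (Benjamini-Hochberg, all genes tested). Differences are ATF7+/- minus ATF7+/+ with the model's SE. The steps were tested on simulated data. Arrays have no depth; their number limits the precision. The spread behind each p-value is that between samples, which the series calls independent experiments; whether litters or sires were shared is not given in the sources used here.

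The comparison, the gene lists and the tests were chosen with earlier results of these data known. Genes were named by a rule: the 15 smallest p, genes past the threshold with the array-set block or in set B, 5 for each interaction, 4 members by p of 6 lists picked after values were seen, and Atf7. Csad, Npff, Sqle, Snord87 and Sult2a8 were added after their values were seen. Males-only fits were also added then. Figures used matplotlib 3.10.9.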

Additional observations from a re-analysis of the deposited data

Results flagged for a closer look

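Of 116 sets of 4 to 10 sample values examined for a stray sample, 9 held one by Dixon's criterion, and chance marks about 1 group in 20. Among ATF7+/- livers of control-diet sires, replicate 1 stood high for Fmo4 (8.86, the others 8.52 to 8.61). Replicate 5 stood low for Nipal1 (7.52, the others 8.15 to 8.52) and for Mvd (7.93, the others 8.58 to 9.10). Among ATF7+/+ livers, replicate 2 stood high for the first probe set of Atf7 (9.59, the others 8.84 to 9.16) and low for Notch2 (8.65, the others 8.84 to 8.98) and Acly (9.19, the others 10.30 to 10.60). Replicate 5 stood low for C4b (10.40, the others 11.01 to 11.36) and for Sult2a8 (7.29, the others 9.14 to 10.29). Replicate 6 stood low for Prtn3 (5.14, the others 5.34 to 5.42).

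The genotype difference differed between array sets A and B for 834 genes by a test of that difference. The genes with the smallest p, as set A minus set B on the log2 scale, were Snord87 (2.51), Pfdn2 (0.95), Snora70 (1.28), P2ry2 (1.38) and Phf21a (-0.95).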

How the results depend on the processing

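Over all samples of control-diet sires, the count of 0 genes stayed 0 without a filter or with a stricter one, with quantile normalization, median centring, a trended robust prior, only the groups compared, a sex covariate, males only and the males-only fit with the array-set block. It was 1 with the mean of a gene's probe sets, 13 with array weights, 10 with the array-set block, 10 with that block and sex, 3 with all 48 arrays, 1262 with set A only, 2 with set B only, and 0 to 4 without 1 sample. For low-protein sires it was 1 with the mean of probe sets, 2 with the block, 4 with block and sex, 1218 in set A alone and 0 without 1 sample. The difference between diets gave 0 genes in each fit. The 834 genes that differed between sets became 1327 with array weights, 144 with only the groups compared, 214 in males and 246 to 1295 without 1 sample. The mean of both Atf7 probe sets passed (-0.70), and the first alone passed with the block (-0.41), block and sex (-0.41) and set A alone (-0.73), and was -0.44 to -0.31 without 1 sample, passing in 1 of 15 fits. The second was -1.05 to -0.93 and passed in all 15. No label says that same-numbered samples of the 2 genotypes share an origin, and they were not treated as pairs. Their deviations correlated from 0.15 to 0.45 in the 6 pairs within 1 array set and at -0.51 and -0.62 in the other two, and 0 of 8 ATF7+/- samples correlated best with their own number. With the replicate number as a block, 0 genes passed for either diet or between diets, and Atf7 gave -0.41 (adjusted p = 0.136) and, on the second probe set, -1.01 (adjusted p = 0.000334). Directions turned with array weights for Stat5a (0.03), Dbp (-0.02) and Sult2a8 (0.15), in set A alone for Apom (-0.26), Rplp2 (0.02) and the control-diet difference of Wfdc13 (-0.05), in set B alone for Stat5b (0.05), Stat5a (0.13), Ciart (-0.02), Dbp (-0.11), Wee1 (-0.11), Vsig4 (-0.03), Snord87 (-0.24) and Sult2a8 (0.65), in males for Dbp (-0.11) and Wee1 (-0.12), and in males with the block for Dbp (-0.15) and Wee1 (-0.19). In set B alone the control-diet difference also turned for Pfdn2 (-0.10), Snora70 (-0.21), P2ry2 (-0.45) and Phf21a (0.01). The causes were not tested.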

Other observations

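Some lists with 0 calls over all samples had called members in array set A alone, where 5.32% of all genes were called higher and 4% lower. Of 13 pericentral hepatocyte genes, which serve drug and glutamine metabolism around the central vein, 6 were called lower in ATF7+/- livers, with a median of -0.43 in set A, 0.12 in set B and -0.16 over all samples. Of 22 measured genes of cytochrome P450 families 1 to 3, 5 were called lower in set A. In set B, 21 of the 22 were higher in ATF7+/- livers (46% of all genes were) and 0 were called. Genes whose level depends on sex in adult liver had medians of -0.43 in set A against 0.25 in set B, and the sexes were unevenly spread over the genotypes. Of 19 cytosolic ribosomal protein genes, 5 were called higher in set A, and for 5 the difference between sets passed the test (6.16% of all genes).

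Erythroid markers, 4 measured of 9, had a median difference of 0.18 over all samples, -0.29 in set A against 0.50 in set B. Their mean level was 6.86 to 8.29 in ATF7+/- livers and 6.54 to 7.64 in ATF7+/+ livers. All 12 stellate cell and fibroblast markers were higher in ATF7+/- livers in set B (46% of all genes were), with a median of 0.17 and 0 calls. In set A, 4 of the 12 were higher (50.6% of all genes were). Among 6517 probe sets with no or several listed symbols, 0 passed in limma between ATF7+/- and ATF7+/+ livers of control-diet sires, and 339 (5.2%) had an unadjusted p under 0.05.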
